A study of Macaca mulatta with 16 samples.

Results

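Isolated SmaI sites are CCCGGG sequences with no other listed SmaI site within 500 bp, and 115 of them were unmethylated in the blood of AL-infant rhesus monkeys. They were chosen from 24288 autosomal sites covered by 100 or more reads in 10 or more of the 13 libraries of ad libitum (AL) monkeys. A site was taken when its methylation level averaged under 5% over the AL-infant libraries with at least 100 reads and when no other listed SmaI site lay within 500 bp on either side. The infant level therefore chose the sites, and every change from AL-infant is given here as a description, with no test. The sites are named by the numbers that the authors gave them on the rheMac2 build.

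Mammalian cells methylate cytosines that stand before a guanine. Outside CpG islands, stretches rich in these CG pairs that are usually kept free of methylation, a CG pair is usually methylated. A CCCGGG sequence holds one at its centre, so several SmaI sites close together tend to mark CpG-rich DNA, and a lone site more often lies outside it. Gains of methylation at unmethylated CpGs, and losses at methylated ones, are known to accumulate in blood with age. Whether a site belonged to a gene, a promoter or a CpG island was not analysed here.

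Whole blood DNA of 16 monkeys was measured, with one library per monkey. The AL-infant group held 2 females and 2 males aged 0.8–0.9 years. The AL-middle group held 1 female and 4 males aged 10.4–12.1 years, and the AL-old group 1 female and 3 males aged 21.9–29.8 years. The CR-old group held 3 females aged 23.7–25.1 years that had been kept under caloric restriction (CR). The label of the youngest monkeys is "young", and they are called AL-infant here. Monkeys are named by group and number. The p-values below set a difference against the spread between monkeys, which was moderated across sites. In the main model this spread was not allowed under the counting error, which can set the p-value at sites with almost no methylated reads. DREAM cuts DNA first with SmaI, which cuts only unmethylated CCCGGG, and then with XmaI, which cuts the methylated sites, so that each read shows by its first bases whether its site was methylated. Whole blood is a mixture of cell types, and a change of the mixture and a change within cells cannot be told apart in these data.

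Libraries held from 8067560 (AL-old 24) to 126804562 reads (CR-old 28) at listed sites. The authors corrected each library with spiked-in standards, and in effect this scaled the odds of every site in a library by a single constant. The constants of AL-infant libraries were 0.398–0.460, those of AL-middle 0.469–0.728, those of AL-old 0.250–0.424 and those of CR-old 0.494–0.772. A corrected percentage was therefore lowered most in AL-old, and uncorrected values (methylated reads over all reads) are given beside the corrected ones. By the uncorrected reading of one standard, Luc306, the AL-middle libraries with CR-old 1 and 28 lay under 35%, and the AL-infant libraries, the AL-old libraries and CR-old 4 lay over it. Age and this library difference cannot be told apart in the comparisons of AL-middle with AL-old and with AL-infant. In the comparison of CR-old with AL-old, only CR-old 4 lay on the same side as AL-old. The unmethylated standard, La248, read 0.134–0.673% methylated across the 16 libraries.

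Isolated sites were rarely measured. Of 263803 isolated autosomal sites in the list, 463 (0.176%) had enough reads, against 18079 of 84300 sites (21.4%) with 1 or 2 neighbours within 500 bp and 5746 of 13904 sites (41.3%) with 3 or more. The 463 isolated sites with enough reads included 115 (24.8%) under 5% and 152 (32.8%) over 90% in AL-infant. Under 5% lay 37.0% of sites with 1 or 2 neighbours and 75.4% of those with 3 or more.

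The nearest listed SmaI site lay 509–11959 bp away (median 1167 bp), over 1000 bp away at 61 of the 115 sites and over 5000 bp away at 12. No pair of these sites lay within 5000 bp of each other. For 33 of them another site with enough reads lay within 5000 bp, at a median distance of 1484 bp. That nearest measured site was itself under 5% in AL-infant in 22 cases, between 5% and 90% in 5 cases and over 90% in 6 cases. Chromosomes 1 and 16 held 12 of the 115 sites each and chromosome 2 held 1. Within 2 Mb of the first or last listed site of a chromosome lay 17 (14.8%), against 16.5% of all 24288 sites.

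Some isolated sites had no reads or almost none in single monkeys. For each site, the reads of a library were scaled for library depth and divided by the median of the site over the 16 libraries. At 31 of 115 isolated sites (27.0%) at least 1 library held under 10% of the median, against 234 of 6683 sites (3.50%) with 1 or 2 neighbours and 117 of 4334 (2.70%) with 3 or more. Over all 24288 sites, methylated ones included, it was 1844 (7.59%). Median reads per site were close, at 332.5, 401.5 and 431.25. With a limit of 5% of the median the shares were 23.5%, 2.63% and 1.87%.

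By monkey, the share of isolated sites under 10% of their median was above that of sites with 1 or 2 neighbours in 14 of 16. The rule asked for 100 reads in most of the AL libraries, so the AL reads took part in choosing the sites in every class, and these shares are given with no test. The 3 CR-old libraries were not used by the rule. In CR-old 1, 4 and 28, 9.57%, 0.870% and 6.09% of isolated sites held such a low value, beside 0.299%, 0.314% and 0.868% of sites with 1 or 2 neighbours. At 13 isolated sites (11.3%) at least 1 CR-old library did, against 1.36% of sites with 1 or 2 neighbours, 1.13% of those with 3 or more and 3.51% of all 24288. No test was run on these 3 libraries, which are too few for an exact one to pass 0.05.

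The losses were deep and fell on different monkeys at different sites. CR-old 1, with 121004338 reads, had 11 of the 115 sites under 10% of their median, AL-old 7 had 9, and AL-middle 42 and AL-old 2 had none. At site 179144 there were 5 such libraries, and at 84 of the 115 sites none. At site 119074 on chromosome 6 (position 69464157), AL-infant 54 held 22 reads, AL-middle 17 held 10, CR-old 1 held 12 and CR-old 28 held 51, while the other 12 libraries held 92–826. The deepest libraries, CR-old 1 and 28, were thus among the lowest there, while AL-old 7, with 56837858 reads in all, held 826. The cause of these gaps was not tested.

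**Figure D1:**
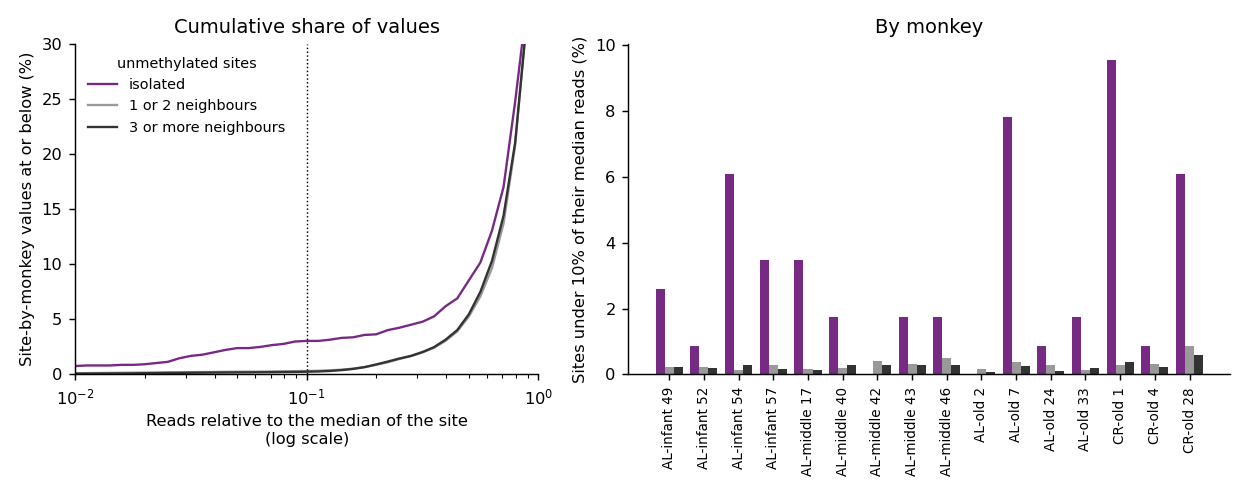
Reads at unmethylated sites relative to the median of each site over 16 monkeys. The left panel gives the cumulative share of site-by-monkey values (%) against relative reads on a log axis, with a dotted line at 10% of the median, and the right panel gives, for each monkey, the share of sites (%) under that line; 3.04% of values at isolated sites (purple) lay under it, against 0.312% and 0.248% at sites with 1 or 2 (grey) and 3 or more neighbours (black), whose curves nearly coincide.

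Values under 100 reads were left out throughout, and 55 sites had at least 100 reads in every library. Shallow libraries took most of the others: AL-old 24, the shallowest, lacked 40 of the 115 sites, of which 1 was under 10% of its median, and AL-middle 40 and 46 lacked 16 each. Of the 1710 values that remained, 654 (38.2%) had no methylated read and 1018 (59.5%) had fewer than 3, so most sites were at or near the limit of detection. A count of 0 allows up to 3 methylated reads, which at the median site was 0.341–2.07% in AL-old libraries and 0.101–0.843% in CR-old libraries. These limits cover counting error only.

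In AL-infant, the level of the 115 sites ran from 0.035% to 4.56% with a median of 0.125%, and 98 sites were under 1%. Just inside the limit were sites 341510 (3.90%) and 119074 (4.56%), and just outside it were sites 188005 (5.03%) and 137907 (5.27%). In AL-old, site 137907 averaged 16.8% and site 188005 averaged 4.95%.

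The mean over the 115 sites was higher in every older monkey than in every infant. It was 0.41%, 0.46%, 0.40% and 0.32% in AL-infant 49, 52, 54 and 57. AL-middle 17, 40, 42, 43 and 46 had 0.84%, 1.28%, 1.05%, 1.01% and 0.86%. AL-old 2, 7, 24 and 33 had 1.60%, 1.40%, 0.98% and 1.78%, and CR-old 1, 4 and 28 had 1.11%, 0.84% and 1.27%. AL-middle, AL-old and CR-old overlapped on this scale.

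The AL-infant group averaged 0.398% ± 0.0560 (SD, n = 4), the AL-middle group 1.01% ± 0.176 (n = 5), the AL-old group 1.44% ± 0.346 (n = 4) and the CR-old group 1.08% ± 0.216 (n = 3). AL-old thus exceeded AL-infant by 1.04 points and AL-middle by 0.432 points, and CR-old lay 0.363 points under AL-old. Without the correction, the means were 0.737% ± 0.0865, 1.53% ± 0.416, 3.52% ± 0.468 and 1.61% ± 0.297, and the 3 differences were 2.79, 1.99 and −1.91 points. Uncorrected, AL-old monkeys ranged from 3.03% to 4.04% and did not overlap with CR-old monkeys, at 1.40–1.95%. The order of the groups was the same on both scales, and the size of the differences depended on the constant. At the sites with no other listed site within 1000 bp, AL-old exceeded AL-middle by 0.207 points and CR-old lay 0.127 points under AL-old. At the 55 sites with enough reads in every library, the corrected group means were 0.250%, 0.666%, 0.911% and 0.748%. Unmethylated sites with 1 or 2 neighbours had corrected group means of 0.479%, 1.28%, 1.65% and 1.52%. Those with 3 or more had 0.345%, 1.14%, 1.48% and 1.32%, so the order of the groups was shared by all unmethylated classes.

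**Figure D2:**
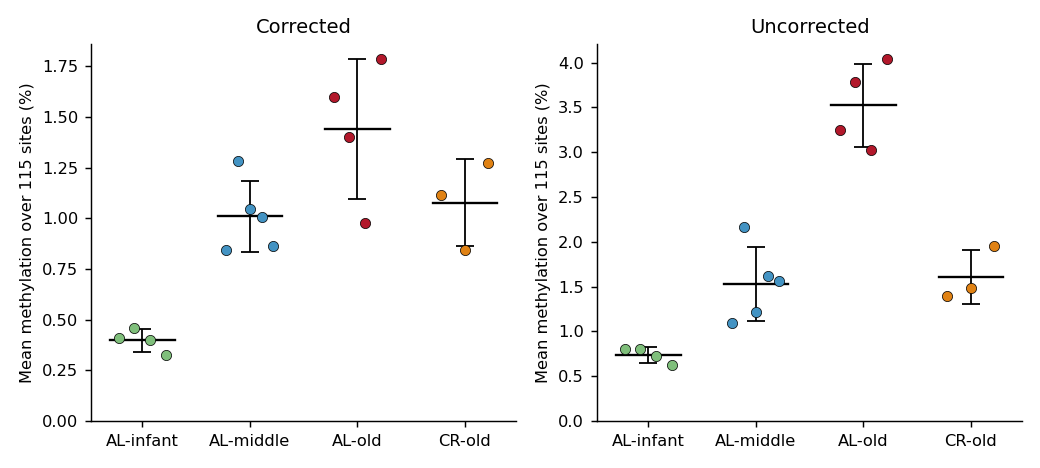
Mean methylation (%) over the 115 isolated sites in each monkey, corrected (left) and uncorrected (right). Points are monkeys, bars are group means and whiskers are SD; the corrected means overlap between AL-middle, AL-old and CR-old, whereas the uncorrected AL-old monkeys, at 3.03–4.04%, lie above every other monkey.

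Most sites stayed low in all groups, and a minority were higher in the older monkeys. The median corrected level over the 115 sites, averaged over the monkeys of a group, was 0.116% for AL-infant, 0.214% for AL-middle, 0.238% for AL-old and 0.280% for CR-old. Uncorrected, it was 0.0476%, 0.146%, 0.444% and 0.384%. The uncorrected median was 0% in AL-infant 52, 54 and 57, AL-middle 42 and AL-old 24. Corrected values count 0.5 reads where none was methylated, so the corrected medians depend in part on depth and the constant. Sites with a group mean of at least 2% numbered 4, 22, 27 and 25 in these groups, and sites of at least 5% numbered 0, 3, 10 and 5. Without AL-old 2 the count of 10 became 6. In AL-old, 23.5% of isolated sites reached 2%, beside 25.1% and 23.4% of unmethylated sites with 1 or 2 and with 3 or more neighbours. For 5% the shares were 8.70%, 10.1% and 8.28%. Over all 24288 sites, 65.3% reached 2% and 58.2% reached 5%. From AL-infant to AL-old, the mean was higher by at least 1 point at 31 sites, within 1 point at 83 and lower by more at 1. Over all 24288 sites, methylated ones included, these counts were 4490, 8732 and 11066. The median change of corrected values was 0.0925 points over the 115 sites, beside −0.065 points over all 24288 sites. In all, 77 of the 115 sites stayed at or under 2% and 96 at or under 5% in every library.

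**Figure D3:**
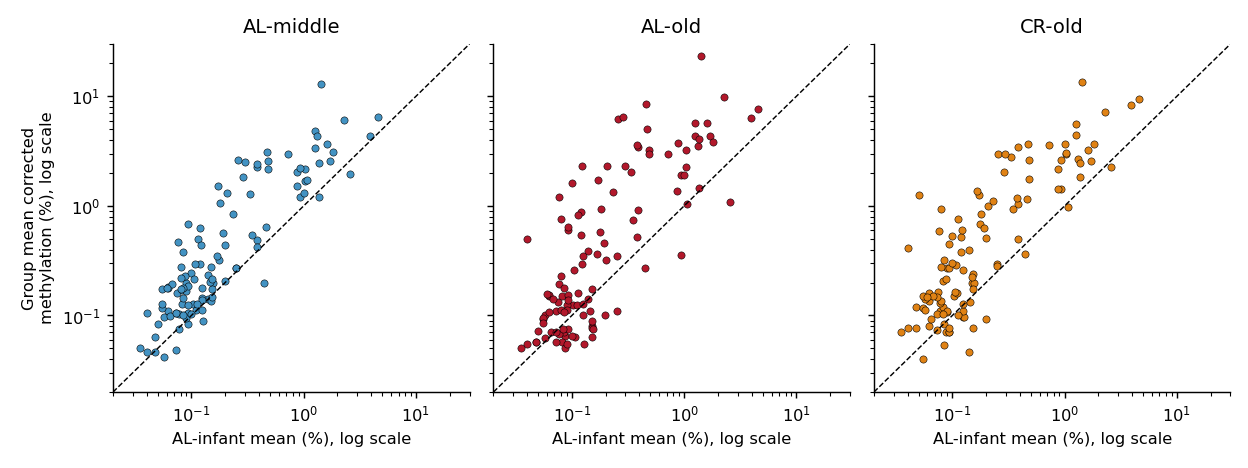
Mean corrected methylation of each of the 115 isolated sites in AL-middle, AL-old and CR-old (%, log axis) against its mean in AL-infant (%, log axis). Points are sites and the dashed line marks equal levels; most sites lie near the line under 0.3%, and the 27 sites at 2% or more in AL-old lie mostly well above it.

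All AL-old values lay above all AL-infant values at 35 of the 108 sites with at least 3 libraries in both groups, a pattern that 17.3% of all sites showed. The opposite order occurred at none of the 108 sites and at 28.1% of all sites. Among unmethylated sites with 1 or 2 neighbours, 34.0% had every AL-old value above every AL-infant value, and among those with 3 or more, 38.3%, beside 32.4% of the isolated sites. On uncorrected values the count was 43 of 108 (19.9% of all sites). All AL-middle values lay above all AL-infant values at 25 of 112 isolated sites (16.9% of all sites). The infant level was part of the rule for these sites, so nothing is read from these counts.

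The SD over AL libraries was over 10 points at none of the 115 sites (19.6% of all sites) and over 2 points at 11, or 9.57% (55.2% of all sites). The infant values, which the rule held under 5%, are part of this SD, so nothing is read from it. Among unmethylated sites with 1 or 2 neighbours 0.224% were over 10 points and 13.1% over 2 points, and among those with 3 or more 0.162% and 11.8%. The highest value of a site was in CR-old 28 at 21 sites, in AL-old 33 at 16 and in AL-old 2 at 13. CR-old 28 also had the highest reading of the unmethylated standard La248, 0.673%. A link between that reading and the count of 21 sites was not tested.

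The highest of these sites was 161799 on chromosome 8 (position 63503680), chosen after its values were seen because 3 libraries were under 100 reads. Its corrected level was 1.65%, 1.27% and 1.33% in 3 infants, 8.86–15.82% in the 5 AL-middle monkeys and 27.06%, 20.61%, 18.12% and 26.73% in AL-old 2, 7, 24 and 33. The only CR-old monkey with enough reads, CR-old 28, had 13.43%. No group with at least 2 values overlapped with another. Uncorrected, AL-old averaged 47.1%, AL-middle 20.4% and AL-infant 3.05%. AL-infant 57, CR-old 1 and CR-old 4 held 16, 25 and 34 reads at this site.

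AL-old was higher than AL-middle at site 161799, by 10.2 points (adjusted p = 0.0137, quasi-binomial model across 23394 sites; 0.0613 with limma on log2 odds). Leaving out each monkey in turn gave adjusted p of 0.0117–0.0379. The library difference named above separates both groups as well, and its part was not tested.

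Site 157630, also on chromosome 8 (position 22654297), moved in the same way with less separation, and was likewise chosen after its values were seen. AL-infant values were 1.94–2.51%, AL-middle values 4.91%, 9.76%, 5.20%, 7.34% and 3.45%, and AL-old values 9.76%, 11.28%, 8.16% and 10.07%. CR-old 1 and 4 had 8.58% and 5.82%. Corrected values of AL-old and AL-middle met at 9.76%. Uncorrected, AL-old lay at 20.2–28.5%, above AL-middle at 6.57–17.4%. The adjusted p of AL-old against AL-middle was 0.0294 in the quasi-binomial model. It rose to 0.160 without AL-middle 17, 0.0587 without AL-middle 42, 0.0527 without AL-middle 46 and 0.0717 without AL-old 7. With a minimum of 200 reads it was 0.0800, and with limma 0.146.

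Site 321844 on chromosome 18 (position 19551635) changed at a much lower level, and had enough reads in all 16 libraries. No AL-infant library held a methylated read there, in 196–379 reads, and AL-middle libraries held 1 methylated read of 666 in AL-middle 17 and 0 in the other 4. AL-old 2, 7, 24 and 33 held 5, 15, 4 and 6 methylated reads, and CR-old 1, 4 and 28 held 9, 2 and 27. Corrected levels were 0.65–0.93% in AL-old, 0.70–1.13% in CR-old and at most 0.29% in AL-middle. Every old monkey thus lay above every younger one, with or without CR, although a count of 0 in AL-middle 42 allows up to 2.50% uncorrected. The adjusted p of AL-old against AL-middle was 0.0243, 0.0112 without the correction constant and 0.0183 with limma, and it was 0.0547 without AL-middle 17 and 0.0621 without AL-middle 43.

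These were the only sites of the 109 tested that were higher in AL-old than in AL-middle at an adjusted p under 0.05, 3 of 109 beside 2.3% of all 23394 sites tested. Only site 195367 was lower, 1 of 109 beside 13.6% of all sites. Among unmethylated sites with 1 or 2 neighbours 3.83% were higher and 0.585% lower, and among those with 3 or more 3.98% and 0.429%. The low share of lower sites was thus shared by all unmethylated classes. Limma called 4 higher and 2 lower, beside 1.46% and 13.1% of all sites. In the classes with neighbours it called 2.63% and 2.91% higher and 1.86% and 1.93% lower. Without the correction constant in the model, 16 of 109 were higher (12% of all sites) and 0 lower (1.2%). In the classes with neighbours 17% and 15.7% were then higher. The 3 sites above were among the 16, and the corrected mean of AL-old was above that of AL-middle at all 16. At these 16 sites the median level in AL-old was 3.34% corrected and 8.62% uncorrected, beside 2.41% and 3.88% in AL-middle. All AL-old values lay above all AL-middle values at 8 of 109 sites (2.59% of all sites) and below them at 2 (17.2%), and on uncorrected values at 23 (12%) and 0 (1.91%). In the classes with neighbours, 4.77% and 4.72% lay above and 2.92% and 3.1% below on corrected values. The median difference of AL-old minus AL-middle was 0.009 points over the 109 sites and −0.2475 points over all sites tested.

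At some of the next highest sites, a single old monkey set the AL-old mean. Without AL-old 33, the sites with an AL-old mean of at least 5% went from 10 to 8. AL-old 33, of 29.3 years, was at least 5 points above every other monkey with enough reads at 5 of the 115 sites, and no other monkey was so at any. Among unmethylated sites with 1 or 2 neighbours this held for AL-old 33 at 2.83% and among those with 3 or more at 2.75%, beside 4.35% of the isolated sites and 1.48% of all 24288. Counting any monkey, the shares were 4.37%, 4.06%, 4.35% and 7.28% in the same order. AL-old 2 was the next most frequent in both classes with neighbours, at 0.658% and 0.577%. High values of AL-old 33 were thus not confined to isolated sites.

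The 5 sites were on chromosomes 14, 16 and 18. At site 290060 (chromosome 16, position 767744), AL-old 33 had 22.29%, from 51 methylated of 116 reads (exact 95% interval 34.8–53.5% uncorrected), and no other monkey exceeded 1.84%. At site 325023 (chromosome 18, position 55968007) it had 16.07%, from 162 of 471 reads (30.1–38.9%), and the other monkeys 0.11–3.13%. Both were chosen after their values were seen, as was site 299383 (chromosome 16, position 43002802), with 7.32% in AL-old 33 and at most 1.21% in the others.

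Sites 259638 and 258196 on chromosome 14 (positions 9816661 and 6403027) had enough reads in every library and were among the 6 such sites with the highest mean in AL-old. At site 259638, AL-old 33 had 10.05%, AL-old 2, 7 and 24 had 2.46%, 1.49% and 0.93%, and the other groups lay at 0.35–1.32% (AL-infant), 1.27–2.68% (AL-middle) and 1.50–3.32% (CR-old). At site 258196 it had 9.66%, beside 1.81%, 2.89% and 2.03% in the other AL-old monkeys, 0.76–1.75% in infants, 2.08–2.95% in AL-middle and 2.04–2.91% in CR-old. Without AL-old 33, the AL-old means of 3.73% and 4.10% became 1.63% and 2.24%, within the range of AL-middle.

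AL-old 2 and AL-old 7 led at the other 4 of these 6 sites. At site 1048 on chromosome 1 (position 2538655), AL-old 2 had 11.09%, AL-old 7, 24 and 33 had 4.02%, 3.11% and 4.69%, and AL-middle monkeys had 3.40–7.37%. Infants lay at 0.57–1.67% and CR-old at 5.63%, 2.55% and 5.20%. The AL-middle monkeys thus all lay above the infants there. On the corrected scale, AL-old apart from AL-old 2 lay within the AL-middle range or just under it. Uncorrected, AL-old lay at 11.1–22.6% and AL-middle at 4.57–13.4%.

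At site 62518 on chromosome 3 (position 47840217), infants lay at 0.32–0.55% and AL-middle monkeys within a narrow 2.84–3.33%. AL-old 2, 7, 24 and 33 had 9.72%, 2.71%, 2.46% and 5.30%, on both sides of the corrected AL-middle range. CR-old 1, 4 and 28 had 4.87%, 2.32% and 3.93%. The SD of corrected AL-old values was 3.37 points, against 0.221 in AL-middle. Uncorrected, AL-old 2, 7, 24 and 33 had 20.2%, 8.01%, 8.96% and 13.2%, all above AL-middle at 4.04–5.93%. Which side of AL-middle the AL-old monkeys lay on thus depended on the correction.

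At site 224534 on chromosome 11 (position 122665616), infants lay at 0.32–0.53%, AL-middle monkeys at 1.31–3.94% and AL-old monkeys at 6.19%, 1.76%, 2.87% and 3.65%. CR-old 1, 4 and 28 had 1.42%, 0.47% and 1.66%. CR-old lay under every AL-old monkey at this site, but the difference did not pass the test (adjusted p = 0.257, 0.0701 without the correction constant).

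At site 329390 on chromosome 19 (position 2899246), the site with the highest AL-old mean among those read in every library, AL-old 7 had 10.87%, from 478 of 1729 reads. AL-old 2, 24 and 33 had 6.23%, 3.76% and 2.17%, AL-middle monkeys 3.11–4.61%, infants 1.19–2.53% and CR-old 1, 4 and 28 5.36%, 1.03% and 3.38%. On the corrected scale AL-old thus spread beyond AL-middle in both directions. The difference did not pass the test (adjusted p = 0.0789, 0.0196 without the correction constant).

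Site 341510 on chromosome 19 (position 51841611), just under the 5% limit in infants, was 1 of the 5 sites with a mean of at least 5% in CR-old. AL-infant 49 and 52 had 3.74% and 4.07%, and AL-infant 54 and 57 held only 14 and 8 reads. AL-middle monkeys had 3.01–4.86%, AL-old 2, 7, 24 and 33 had 11.47%, 6.28%, 3.58% and 4.19%, and CR-old 1, 4 and 28 had 8.80%, 10.28% and 5.97%. Each CR-old monkey lay above each AL-middle monkey and within the AL-old range. At site 119074, the other site just under the limit, infants with enough reads had 3.47–5.61%, AL-middle monkeys 5.52–7.22%, AL-old monkeys 7.22–8.19% and CR-old 4, the only CR-old monkey with enough reads, 9.42%.

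**Figure D4:**
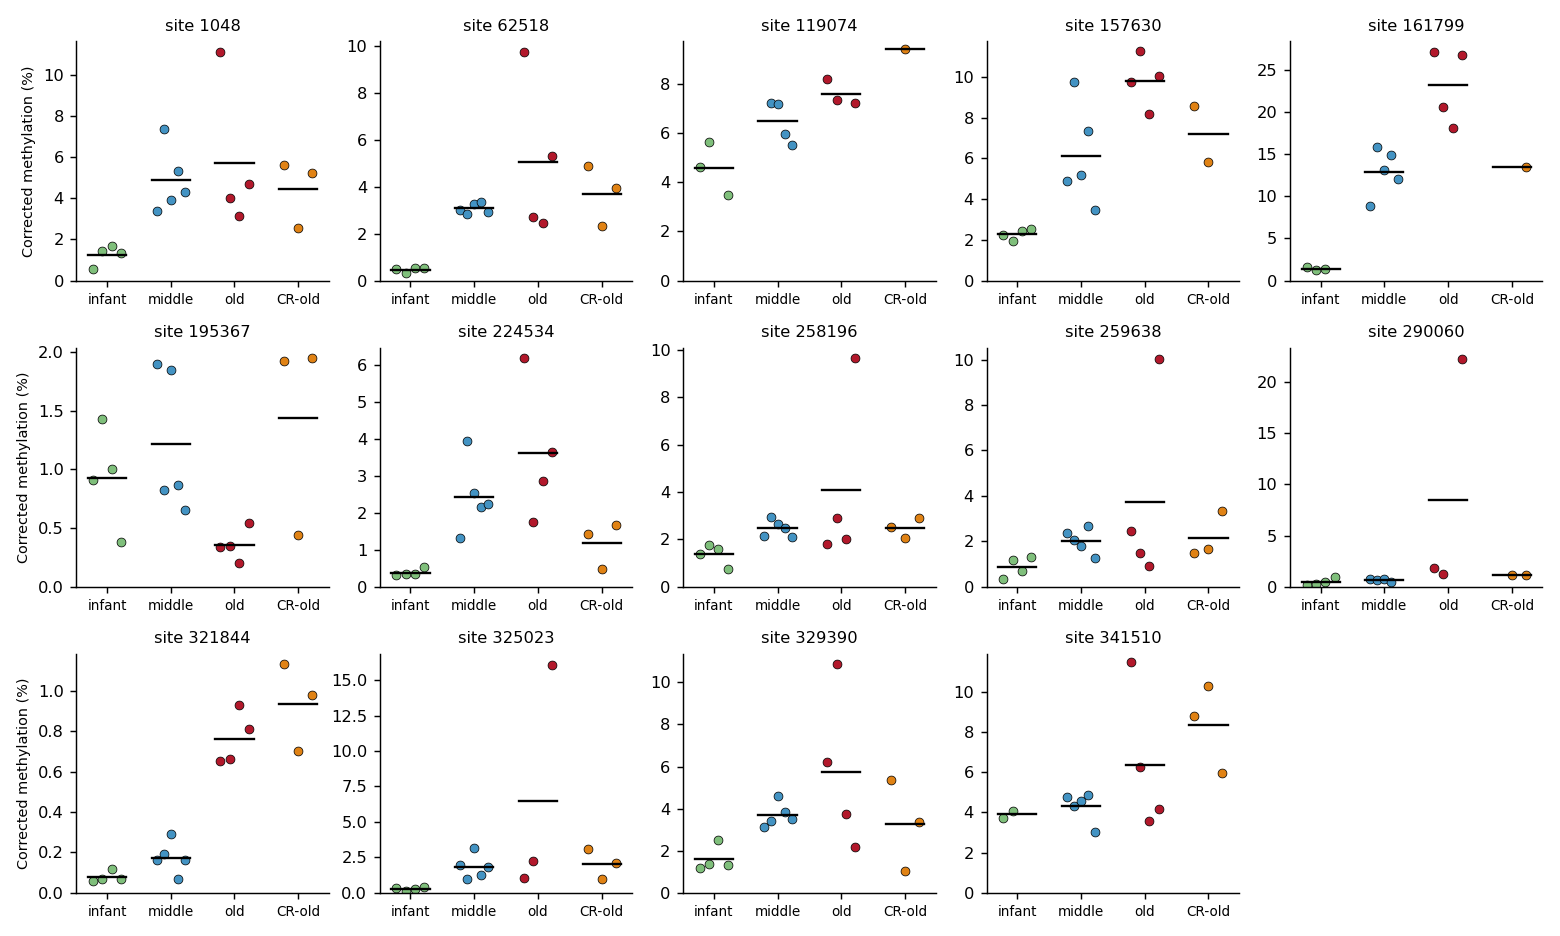
Corrected methylation (%, linear axes that differ between panels) of 14 isolated sites in each monkey with at least 100 reads, by group. Points are monkeys and bars are group means; at sites 290060, 325023, 258196 and 259638 the high AL-old mean is set by AL-old 33 alone, and at sites 161799 and 321844 all AL-old monkeys lie above all AL-middle monkeys.

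Caloric restriction was compared with ad libitum feeding in old monkeys at the 99 isolated sites with at least 3 libraries in each group. At an adjusted p under 0.05, 1 of 99 was higher in CR-old, beside 13% of all 33134 sites tested, and 0 were lower, beside 0.492%. Among unmethylated sites with 1 or 2 neighbours 1.23% were higher and 0.94% lower, and among those with 3 or more 0.981% and 0.537%. The low share of higher sites was thus shared by all unmethylated classes. At an unadjusted p under 0.05 there were 13 of 99 (13.1%), beside 31.3% of all sites and 12.8% and 11.4% in the classes with neighbours. Without the correction constant 0 were higher (0.145% of all sites) and 0 lower (1.89%), while 3.11% and 2.64% of the classes with neighbours were lower. Limma also called 0 higher (0% of all sites) and 0 lower (0.00604%). The median difference of CR-old minus AL-old was 0.0133 points over the 99 sites and 0.6 points over all sites. The difference was within 1 point at 80 sites, at least 1 point upward at 6 and at least 1 point downward at 13. Over all 33134 sites, it was within 1 point at 14485, upward at 15683 and downward at 2966.

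The single call was site 195367 on chromosome 10 (position 32300131), also the site called lower in AL-old than in AL-middle, so both calls rest on the same AL-old values. AL-infant had 0.38–1.43%, AL-middle 1.90%, 0.82%, 1.85%, 0.87% and 0.65%, AL-old 0.34%, 0.35%, 0.20% and 0.54%, and CR-old 1, 4 and 28 had 1.92%, 0.44% and 1.95%. CR-old 4, the only CR-old library on the same side as AL-old by the Luc306 standard, lay within the AL-old range. The adjusted p was 0.0155 for CR-old against AL-old and 0.992 with CR-old 4 alone. It was 0.0569 without CR-old 1, 0.0574 without CR-old 28, 0.143 without the correction constant and 0.136 with limma. Against AL-middle the adjusted p of AL-old was 0.0329 and 0.0302 with limma, and it was 0.101 without AL-middle 17, 0.0657 without AL-middle 42, 0.0593 without AL-old 2, 0.0634 without AL-old 24, 0.0833 without AL-old 7, 0.0966 without the constant and 0.0526 with a minimum of 200 reads.

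All CR-old values lay above all AL-old values at 5 of 99 isolated sites (5.05%), beside 23.9% of all sites, and below them at 2, beside 1.5%. In the unmethylated classes with neighbours, 4.9% and 4.46% lay above and 2.79% and 2.43% below. On uncorrected values the counts were 1 (2.71% of all sites) and 12 (11.9%). In the classes with neighbours, 1.27% and 1.21% then lay above and 17.7% and 17.6% below. Which direction was the more frequent thus changed with the correction. CR-old monkeys were all female and 3 of 4 AL-old monkeys were male. The sexes were therefore compared among the 13 AL monkeys with age class in the model. None of 114 isolated sites was called in either direction, and none of all 35817 sites was either, which puts both backgrounds at 0%. At an unadjusted p under 0.05 there were 7 of 114 (6.14%), beside 7.48%, and limma, too, called none. Sex and diet cannot be told apart for the CR-old monkeys themselves.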

How the data were processed

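Per the labels, methylation was measured by DREAM in whole blood DNA of 16 rhesus monkeys, 1 library each, with standards of 0, 25, 50 and 100% methylation added. For every SmaI site, named by rheMac2, the authors deposited read counts (total, methylated and unmethylated) and a raw and an adjusted percent. The submitters' processing notes list Bowtie2 and SAMtools, without versions, and the build mm10, which is not a monkey build; positions are printed as deposited, and whether they count from 0 or 1 is not given in the sources used here. In every library the adjusted odds equalled (methylated + 0.5)/(unmethylated + 0.5) times one constant. Corrected values are the deposited adjusted percent; uncorrected values are methylated over all reads. PCR reads carried no molecular identifiers.

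Values under 100 reads were left out. Each autosomal site with at least 3 such libraries per group was fitted with a quasi-binomial logistic model of the counts, the logarithm of the constant as offset, dispersion moderated across sites (limma 3.58.1, R 4.3.3) and not under 1, and Benjamini-Hochberg adjustment over all sites tested, with a threshold of 0.05. Alternatives were no offset, limma on log2 odds after adding 0.5 reads, 20 or 200 reads as the minimum, a 1000 bp window, an infant mean under 2%, a difference of at least 2 points, sex as a term, CR-old 4 alone and each monkey left out. The model and limma were tested on simulated data. The model recovered the shifts, but with extra spread between monkeys on the log odds scale its calls between CR-old, AL-old and AL-middle held more false ones than the adjusted p states, and limma's held fewer; limma's result is therefore given beside each call. Reads relative to the median of a site were scaled by the median count of each library over sites with reads in all libraries. Other steps used Python 3.11.15 (scipy 1.17.1, numpy 2.4.6, pandas 2.3.3) and figures matplotlib 3.10.9.

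Named are, among sites with 100 reads in every library, the 6 with the highest AL-old mean, those called with and without offset (up to 4 in each direction for CR-old and for age, 2 for sex), and the 2 sites on each side of the 5% limit; others are marked as chosen after their values were seen. Sites and lists were chosen with earlier results of these data known. Gene annotation, CpG islands and sequences around the sites were not analysed here.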

Additional observations from a re-analysis of the deposited data

Results flagged for a closer look

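Dixon's test at the 95% level was run on 39 groups of 4 or 5 monkeys, at the sites named above and for the mean over the 115 sites. In these, 5 values stood apart. Chance gives about 1 in 20 only where the tested values did not choose the site. All of these sites had to average under 5% in AL-infant, and many were also chosen by their AL-old values. The rate therefore does not hold for AL-infant or for AL-old. AL-old 33 stood apart at site 258196, with 9.66% beside 1.81–2.89% in the other AL-old monkeys, and at site 259638, with 10.05% beside 0.93–2.46%. AL-infant 54 had 2.53% at site 329390, beside 1.19–1.39%, and 0.12% at site 321844, beside 0.06–0.07%. No infant library held a methylated read at site 321844, so the levels there depend only on the reads and the constant. AL-infant 57 had 0.53% at site 224534, beside 0.32–0.34%.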

How the results depend on the processing

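No paired analysis was possible because the groups share no monkey numbers. The mean over sites kept its direction under every alternative run. AL-old minus AL-infant was 1.04 points, 2.79 uncorrected, 2.73 uncorrected minus the La248 standard, 0.661 at sites with enough reads in every library and 0.927–1.20 with each monkey left out. AL-old minus AL-middle was 0.432 points, 1.99 uncorrected, 1.96 minus the standard, 0.244 at sites read in every library, 0.207 with a 1000 bp window and 0.317–0.586 with each monkey left out. CR-old minus AL-old was −0.363 points, −1.91 uncorrected, −2.00 minus the standard, −0.595 with CR-old 4 alone, −0.226 from summed reads, −0.162 at sites read in every library, −0.127 with a 1000 bp window and −0.517 to −0.247 with each monkey left out. Sites higher in CR-old, 1, were 0 without the constant, with limma, with CR-old 4 alone and with at least 2 points, 2 with a minimum of 20 reads and with sex as a term, and 0–2 with each monkey left out. Sites lower in CR-old, 0, were 1 with 20 reads and with sex as a term, and 0–1 with each monkey left out (1 without AL-old 7). Sites higher in AL-old than AL-middle, 3, were 16 without the constant, 1 with 200 reads, 0 with a 1000 bp window, and 1–4 with each monkey left out (1 without AL-middle 17). Sites lower in AL-old, 1, were 0 without the constant, with 200 reads and with at least 2 points, 2 with limma, and 0–1 with each monkey left out. The minimum of 200 reads and the 1000 bp window leave 54 and 56 sites to test. Causes of the other changes were not tested. The comparison of the sexes gave 0 calls throughout. The minus-standard values, the sites read in every library and CR-old 4 alone for the mean were added after the data were seen.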
